A study of Mus musculus with 12 samples.

Results

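The genes of MHC class I antigen presentation were examined in ATAC-seq peak lists of mouse splenic natural killer (NK) cells. ATAC-seq cuts accessible DNA with a transposase, so that intervals with many cuts mark open chromatin. The 9 genes were the heavy chains H2-K1 and H2-D1, the light chain B2m, the peptide transporter subunits Tap1 and Tap2, the loading factor Tapbp, the immunoproteasome subunits Psmb8 and Psmb9, and the transactivator Nlrc5. Their regions were the open-chromatin regions within 50 kb of the gene body for which one of them was the nearest protein-coding gene. By this rule 23 of 44875 regions belonged to the 9 genes.

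The 4 groups had 3 libraries each, of 100000 cells per library. KO stimulated cells lacked Regnase-1 in NK cells (Reg-1ΔNK) and were treated with IL-12/18. WT stimulated cells were Reg-1fl/fl cells, labelled WT, with the same treatment. KO control and WT control cells were the same genotypes without it. Regnase-1 is an RNase that degrades messenger RNAs of inflammatory genes, and IL-12 with IL-18 drives NK cells to make interferon gamma. All 12 libraries came from spleen, and fl/fl names the floxed Regnase-1 gene before its deletion. The Cre driver of the deletion, the age of the mice and the dose and length of the treatment are not given in the sources used here. The labels do not say whether the 3 libraries of a group came from separate animals, so p-values measure the spread between these libraries, which may be technical.

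MHC class I molecules carry peptides of intracellular proteins to the cell surface. The heavy chain pairs with B2m in the endoplasmic reticulum, where the Tap1–Tap2 transporter delivers peptides that the proteasome has cut, and tapasin (Tapbp) holds the empty molecule at the transporter. Psmb8 and Psmb9 replace the constitutive catalytic subunits in the immunoproteasome. Nlrc5 activates class I promoters through a module of X and Y boxes, and the pathway is a classical target of interferon gamma. NK cells read class I on other cells through inhibitory receptors and express it themselves.

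The strength of a region in a library is given as a percentile. Each library was reduced to its 35110 strongest peak intervals by the −log10 q the authors deposited, which is as many as the shortest list held. In a library, 100 marks the strongest interval of its list and 0 a region with no interval in it. A percentile is a position among the peaks of the same library, so a region can change place because other regions moved. Where a region had no call, a weaker peak may have been deposited all the same. Read depth is unknown, because peak lists do not give it.

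The KO stimulated libraries stood apart. Their lists of regions overlapped each other with Jaccard indices of 0.759 to 0.822, against 0.848 to 0.895 within the other groups. KO stimulated library 1 had the shortest list, and its −log10 q at the end of the equal list was 1.31, against 4.60 to 27.1 in the other libraries. Its list held only 306 different −log10 q values, so that many regions share a percentile, and 3 member regions stood at 69.0 in it. The targeted gene, Zc3h12a, had 1 open region over a gene end in all 12 libraries, at percentiles of 97.5 to 99.5, and this region gives no check of the deletion. Of 8 NK marker genes, 8 were open in every library. Their summed percentile was 544 to 590 in KO stimulated, 622 to 625 in WT stimulated, 582 to 586 in KO control and 617 to 641 in WT control libraries, and its part in the member results was not tested. Of 6 B cell markers 1 to 2 were open, with Cd79a at 78.8 to 97.2 in all 12 libraries, Blk called in 3, and Cd79b, Ms4a1 and Pax5 at 0 in every library, and summed percentiles of 78.8 to 96.4, 94.1 to 95.6, 97.1 to 110.2 and 97.2 to 114 in the same order of groups. Of 7 T cell markers 2 to 4 were open, with Cd3d at 88.35 to 97.4 and Cd3e at 43.2 to 81.1 in all 12 libraries, Cd4 called in 10 of 12, Cd5 in 6, and Cd3g, Cd8a and Cd8b1 at 0, and sums of 161 to 189.5, 146 to 179, 186 to 211 and 183 to 209. Of 8 myeloid and dendritic markers 2 were open (Cd14 and Xcr1), with sums of 125 to 144, 132 to 137.5, 112 to 132 and 119.7 to 142.7. Of 3 erythroid markers 1 to 2 were open, with Klf1 at 76.0 to 85.96 in all 12 libraries and Hbb-bs at 0, and sums of 80.95 to 97.4, 76.0 to 81.2, 79.6 to 80.9 and 81.1 to 91.3. The part of these lists in the results was not tested either, and in a bulk sample fewer cells of a type and less signal per cell cannot be told apart.

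The start regions show where the class I genes sit in the open chromatin of NK cells. Promoter sequences were taken from RefSeq (GRCm38.p6, the assembly behind mm10), which gave windows for 7 of the 9 members. The stretches upstream of the H2-K1, H2-D1 and B2m starts, and the stretch between the divergent starts of Psmb9 and Tap1, are shown because the strongest summits of these genes fell in or beside them. Each runs 5′ to 3′ on the strand given, and capitals mark matches to the searched motifs.
H2-K1, chr17:34000348-34000597, minus strand: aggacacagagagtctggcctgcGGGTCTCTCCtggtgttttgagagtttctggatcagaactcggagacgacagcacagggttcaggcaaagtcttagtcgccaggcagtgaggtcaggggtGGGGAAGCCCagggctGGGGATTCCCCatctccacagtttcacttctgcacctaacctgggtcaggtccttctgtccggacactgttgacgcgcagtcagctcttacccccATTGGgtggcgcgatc
H2-D1, chr17:35262844-35263093, plus strand: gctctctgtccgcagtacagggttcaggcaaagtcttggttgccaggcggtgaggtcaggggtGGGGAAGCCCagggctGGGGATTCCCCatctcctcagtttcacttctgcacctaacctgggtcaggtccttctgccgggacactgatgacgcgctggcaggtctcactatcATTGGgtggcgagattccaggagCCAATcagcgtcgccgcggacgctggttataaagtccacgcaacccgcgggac
B2m, chr2:122147437-122147686, plus strand: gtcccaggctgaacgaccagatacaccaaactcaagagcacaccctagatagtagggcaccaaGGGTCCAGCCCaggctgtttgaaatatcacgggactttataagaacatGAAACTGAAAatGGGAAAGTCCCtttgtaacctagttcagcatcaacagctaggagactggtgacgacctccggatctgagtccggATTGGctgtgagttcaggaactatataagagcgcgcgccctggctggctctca
Psmb9-Tap1, chr17:34187331-34187555, plus strand: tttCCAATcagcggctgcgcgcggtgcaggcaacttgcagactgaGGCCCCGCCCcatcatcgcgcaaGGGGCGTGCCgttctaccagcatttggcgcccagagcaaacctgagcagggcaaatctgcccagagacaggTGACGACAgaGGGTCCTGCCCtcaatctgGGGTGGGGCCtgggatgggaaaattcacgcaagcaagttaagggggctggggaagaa

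The motif search covered both strands of the 250 bases upstream of each start, and a match is a description of the letters only. The kB letters, GGG then any 5 bases then CC, were present upstream of H2-K1, H2-D1, B2m, Tap1 and Psmb9, against 45.8% of all 32851 windows. The inverted CCAAT letters of the Y box, ATTGG, were present in 6 of 7 members, all but Psmb8, against 33.8% of windows. Tap1 and Psmb9 share the stretch between their starts, so their ATTGG, kB and X2 letters and the GC box letters are the same sites counted for both genes. The X2 letters TGACGNNA were found once, between Psmb9 and Tap1 (5.66% of windows). The printed H2-K1, H2-D1 and B2m stretches hold TGACG without the last A of the pattern, and such near matches were not counted. A missing match to any of the patterns therefore does not show that the element is absent. The ISRE letters, GAAA then any 2 bases then GAAA, of the interferon-stimulated response element, were found upstream of B2m (2.98% of windows). The GAS letters TTCNNNGAA, the gamma-activated site, were found upstream of Psmb8 (7.02% of windows). GC box letters GGGCGG were found for Tap1, Tapbp and Psmb9 (32.7% of windows), where they can overlap kB letters, and no member had the AP-1 letters TGANTCA (6.75% of windows). H2-K1 and H2-D1 are paralogs: laid on each other by their shared kB letters, 166 of 190 upstream bases were identical (87.4%), with a longest identical run of 47 bases. Reads from such stretches could be assigned to either gene, and how the authors treated them was not given in the sources used here.

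The heavy chain starts were among the strongest regions of every library. The region over the H2-K1 start (chr17:33998507-34002750) stood at percentiles of 96.2, 93.2 and 93.5 in KO stimulated cells and 92.4, 92.7 and 91.2 in WT stimulated cells. It stood at 94.8, 92.6 and 94.5 in KO control cells and 96.9, 93.4 and 93.1 in WT control cells. Every WT stimulated library was below every KO stimulated and every WT control one, while the other groups overlapped. The stimulated minus control difference was -1.02 points and did not pass (exact permutation test, two-sided, p = 0.325, adjusted p = 0.408). The strongest summit lay 28 bases upstream to 161 bases downstream of the start, and 11 of 12 libraries had a summit in the promoter window, 250 bases before to 50 bases after it.

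The region over the H2-D1 start (chr17:35262154-35266083) had 90.9, 96.45 and 97.2 in KO stimulated cells, 97.1, 96.7 and 96.05 in WT stimulated cells, 95.4, 97.05 and 96.99 in KO control cells and 96.0, 94.4 and 94.7 in WT control cells. WT stimulated libraries were all above WT control libraries, while the KO libraries overlapped and KO stimulated library 1 was the lowest of the 12. The stimulated minus control difference was -0.02 points (exact permutation p = 1.0, adjusted p = 1). Its strongest summit fell 166 to 20 bases upstream of the start in all 12 libraries, within the stretch printed above. It lay over or beside the kB letters, between -187 and -161, in every library except KO stimulated library 1, where it lay 20 bases upstream of the start.

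Single summits within these broad regions did not all behave like the start. Windows of 250 bp on either side of every summit were merged and tested in the same way. Of 30 such windows in the member regions 25 could be tested, and 7 were higher and 6 lower in stimulated cells (22.1% and 30.2% of all windows tested). The higher windows include those at Nlrc5 regions 7 and 9, which had no call in control libraries. They were kept through stimulated libraries alone, so their tests are no support for a rise. The H2-K1 window at the start had a difference of -1.03 points (exact permutation p = 0.275, adjusted p = 0.351). A second window upstream of it (chr17:34002002-34002642) had 40.3, 58.9 and 54.4 in KO stimulated, 60.02, 60.35 and 59.4 in WT stimulated, 39.2, 50.5 and 40.01 in KO control and 33.4, 50.8 and 48.1 in WT control cells. It rose by 11.9 points (exact permutation p = 0.025, adjusted p = 0.0478), with WT stimulated libraries above all control libraries and KO stimulated libraries overlapping them. In H2-D1 the start window had a difference of -0.12 points (adjusted p = 0.961, exact permutation test). A window inside the gene (chr17:35263668-35264635) had 20.04, 45.2 and 27.6 in KO stimulated, 13.8, 35.7 and 6.20 in WT stimulated, 38.1, 46.1 and 43.05 in KO control and 61.1, 43.1 and 42.99 in WT control cells. It fell by 20.99 points (exact permutation p = 0.015, adjusted p = 0.0353).

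Flanking regions of the heavy chains were weaker. The region 6.8 kb (6799 bp) above H2-D1 (chr17:35274296-35275522) had 21.8, 26.6 and 24.7 in KO stimulated, 25.3, 21.3 and 16.6 in WT stimulated, 34.7, 42.7 and 31.1 in KO control and 45.7, 34.2 and 30.5 in WT control cells. All 6 stimulated libraries were below all 6 control libraries. It fell by 13.8 points and passed the test (exact permutation p = 0.005, the smallest the design allows, adjusted p = 0.0147). The region 3211 bp below H2-D1 (chr17:35257230-35259883) stood at 69.9 to 80.1 over the 12 libraries (-1.28 points, exact permutation p = 0.425, adjusted p = 0.512). The region 3516 bp below H2-K1 (chr17:33991624-33992496) was called in 8 of 12 libraries and reached at most 24.1, with a difference of -1.96 points (exact permutation p = 0.75, adjusted p = 0.811).

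B2m, the light chain shared by all class I molecules, had 1 region over its start (chr2:122146690-122150552). Its percentiles were 94.3, 90.4 and 88.6 in KO stimulated, 92.1, 90.1 and 87.97 in WT stimulated, 92.35, 91.1 and 89.1 in KO control and 95.6, 92.1 and 91.5 in WT control cells. All groups overlapped, and the difference of -1.38 points did not pass (exact permutation p = 0.315, adjusted p = 0.398). The strongest summit lay 80 bases upstream to 42 bases downstream of the start. The printed stretch holds the ISRE letters at -139 to -130 and, beside them, overlapping kB letters from -127 to -117. The covered length was 2958, 2918 and 2704 bp in KO stimulated and 3277, 2833 and 2864 bp in WT stimulated cells, against 3168, 3777 and 3116 bp in KO control and 3731, 3348 and 3069 bp in WT control cells. This difference of -442.5 bp did not pass adjustment (exact permutation p = 0.02, adjusted p = 0.107). A summit window inside the gene (chr2:122148018-122149590) had 50.9, 42.8 and 44.1 in KO stimulated and 53.2, 58.0 and 51.5 in WT stimulated cells, against 31.8, 44.5 and 0 in KO control and 53.0, 48.8 and 48.1 in WT control cells. KO libraries were below WT libraries within both treatments, and the KO minus WT difference of -16.45 points missed adjustment (exact permutation p = 0.005, adjusted p = 0.0865). In this annotation B2m lies inside the gene body of Patl2.

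**Figure D1:**
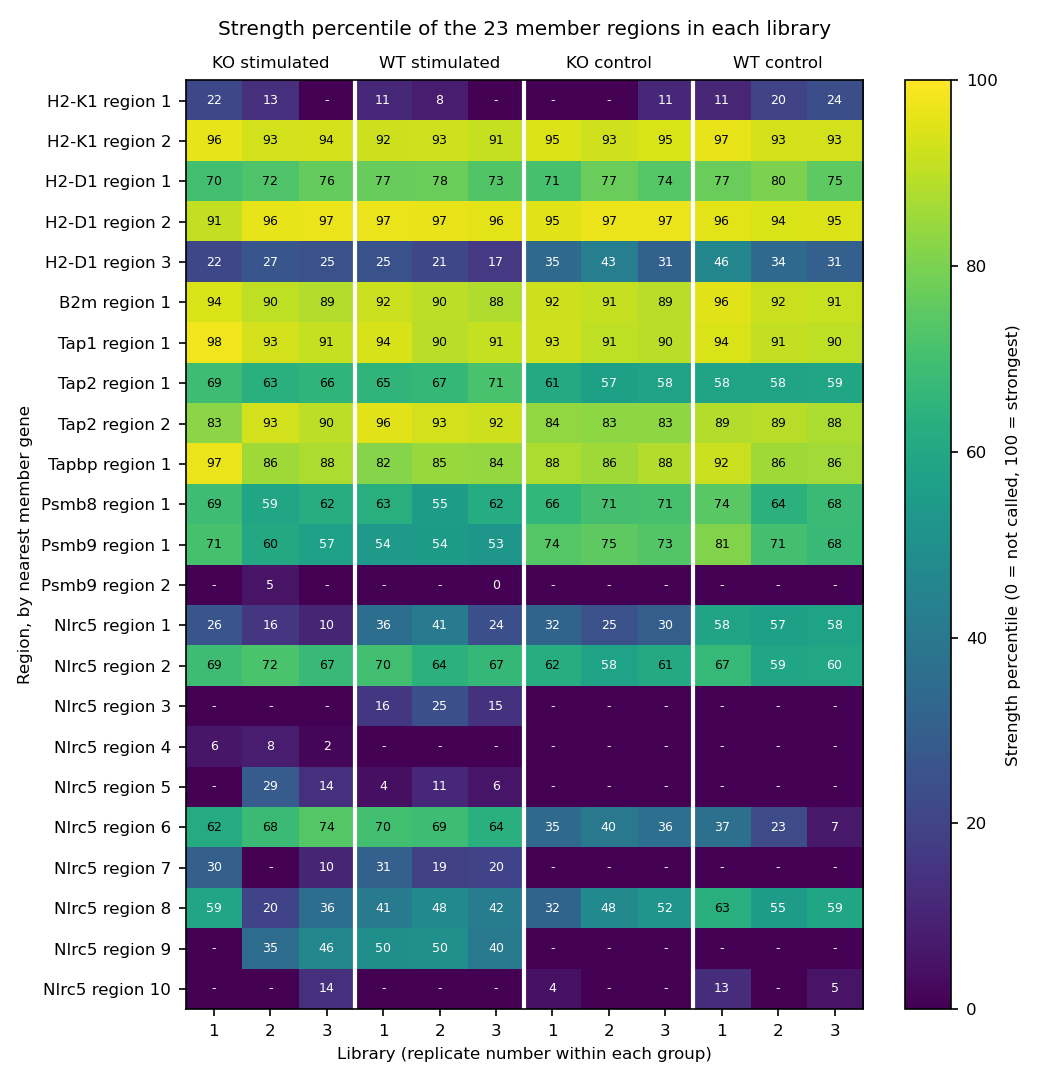
Strength percentile (colour and number) of the 23 regions (rows) in the 12 libraries (columns, by group); a dash marks a region not called. The start regions of H2-K1, H2-D1, B2m, Tap1 and Tapbp lie above 81 in all 12 libraries, while most Nlrc5 regions (rows at the bottom) are weak and several are called only in stimulated cells.

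Of the transporter genes, both Tap2 regions rose with stimulation, and the Tap1 start did not pass the test. Tap1 and Psmb9 start at 34187556 and 34187330, on opposite strands with 225 bases between them, and shared 1 region (chr17:34186312-34188655), which was assigned to Tap1. It stood at 97.8, 93.3 and 91.1 in KO stimulated, 93.8, 89.5 and 91.4 in WT stimulated, 92.6, 90.6 and 89.5 in KO control and 94.2, 90.7 and 90.3 in WT control cells. The groups overlapped and the difference was 1.48 points (exact permutation p = 0.335, adjusted p = 0.419). The strongest summit lay 95 bases upstream to 5 bases downstream of the Tap1 start in all 12 libraries, in or at the edge of the printed stretch between the starts.

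Tap2 region 1 (chr17:34201179-34206677) spans the upper end of Psmb8 and the lower end of Tap2. It had 69.0, 63.5 and 65.6 in KO stimulated, 65.4, 66.7 and 71.2 in WT stimulated, 61.2, 56.9 and 57.8 in KO control and 58.25, 58.3 and 58.7 in WT control cells. All stimulated libraries were above all control libraries. The rise was 8.38 points (exact permutation p = 0.005, adjusted p = 0.0147).

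The strongest summit of Tap2 region 1 changed place. It lay between positions 34203286 and 34203595 in the 6 stimulated libraries and between 34204489 and 34206047 in the 6 control libraries, a median shift of -1692.5 bp. Of 21010 regions called in all 12 libraries, 1.3% had summits that did not overlap between stimulated and control libraries and had medians at least 500 bp apart. Of the 15 member regions called in all 12 libraries, Tap2 region 1 was the 1 that met this. The window with the stimulated summit (34202998-34203845) had 70.5, 64.5 and 66.8 in KO stimulated and 66.7, 68.1 and 72.6 in WT stimulated cells, against 36.9, 42.7 and 45.7 in KO control and 38.9, 43.1 and 40.7 in WT control cells. It rose by 26.85 points (exact permutation p = 0.005, adjusted p = 0.0145). The window at the lower end of Tap2 (34204009-34204871) had a difference of -4.20 points (exact permutation p = 0.27, adjusted p = 0.346). The window inside the gene (34205252-34206307) had 50.9, 55.9 and 50.3 in KO stimulated and 47.65, 52.3 and 51.1 in WT stimulated cells, against 58.2, 56.4 and 58.7 in KO control and 60.6, 58.7 and 59.8 in WT control cells. It fell by 7.37 points (exact permutation p = 0.005, adjusted p = 0.0145), while the upstream window rose. Whether the windows differed from each other was not tested.

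**Figure D2:**
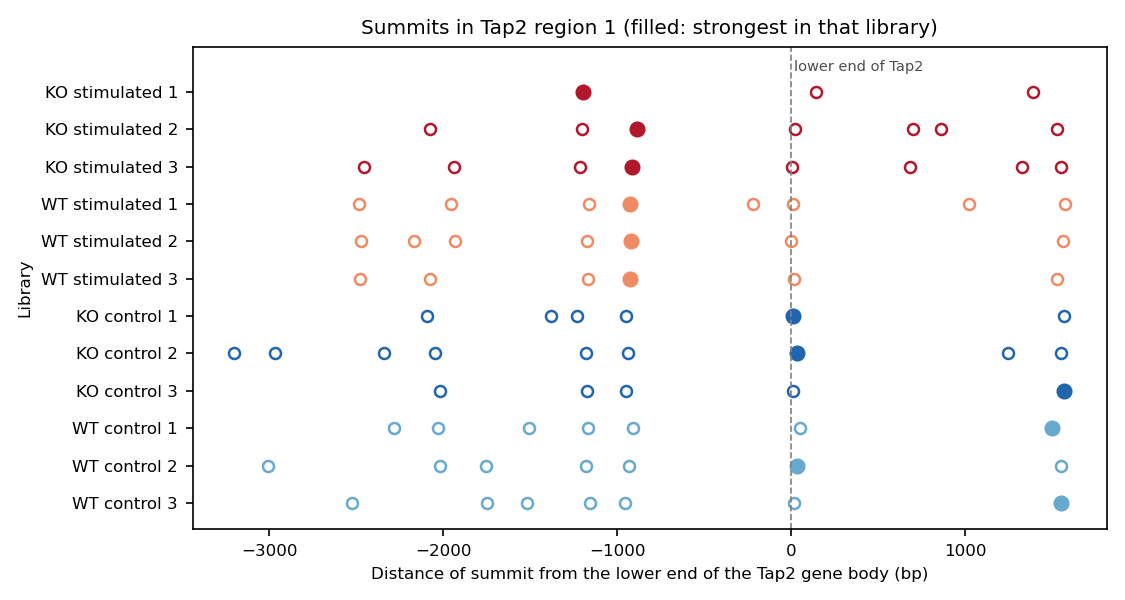
Position of every deposited summit in Tap2 region 1 (x axis, bp from the lower end of the Tap2 gene body) in each library (rows), with the strongest summit filled. The filled points lie left of the gene end in all 6 stimulated libraries and at or right of it in all 6 control libraries.

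Tap2 region 2 (chr17:34209753-34211517), inside the gene, was the stronger of the pair. It had 82.8, 93.2 and 90.05 in KO stimulated, 95.6, 93.2 and 92.4 in WT stimulated, 83.9, 83.05 and 82.9 in KO control and 88.65, 89.2 and 87.6 in WT control cells. WT stimulated libraries were all above WT control libraries, KO stimulated library 1 was below all control libraries, and KO control libraries were all below WT control libraries. Stimulated minus control was 5.29 points (exact permutation p = 0.02, adjusted p = 0.0401), a call lost without WT control library 2 or 3 or any 1 KO control library (adjusted p of 0.0533 to 0.0887). KO minus WT was -5.12 points and did not pass (exact permutation p = 0.015, adjusted p = 0.151). The strongest summits of stimulated libraries (34210718 to 34210756) and control libraries (34210763 to 34210774) did not overlap, with a median difference of -15.0 bp. Such separations, of any size, were found in 7.3% of regions called in all 12 libraries.

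Tapbp encodes tapasin, which bridges empty class I molecules to the transporter. Its region over the start (chr17:33918422-33921595) had 97.0, 85.8 and 87.6 in KO stimulated, 81.7, 84.7 and 84.05 in WT stimulated, 87.8, 85.9 and 88.4 in KO control and 92.0, 85.9 and 86.1 in WT control cells. KO stimulated libraries were all above WT stimulated ones, and WT stimulated libraries were all below WT control ones. The stimulated minus control difference was -0.87 points (exact permutation p = 0.66, adjusted p = 0.734). No library had a summit in the promoter window, and the strongest lay 124 to 1118 bases downstream of the start.

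Psmb8 and Psmb9 each had an assigned region that fell with stimulation, over the start of Psmb8 but 10215 bp below the Psmb9 gene. Psmb8 encodes the LMP7 subunit. Its region over the start (chr17:34196327-34199428) had 69.0, 58.9 and 62.2 in KO stimulated and 63.2, 54.7 and 61.99 in WT stimulated cells, against 66.2, 70.7 and 71.04 in KO control and 74.2, 64.1 and 68.3 in WT control cells. WT stimulated libraries lay below WT control libraries and the KO groups overlapped. It fell by 7.44 points and passed (exact permutation p = 0.02, adjusted p = 0.0401) and was lost in 9 of 12 fits that left out 1 library (adjusted p of 0.0533 to 0.0859; it held without WT control library 2, KO control library 1 or KO stimulated library 1). In limma on normal scores of the ranks it had an adjusted p of 0.079. The strongest summit lay at 34198211 to 34198451 in KO stimulated and 34197719 to 34197750 in WT stimulated libraries, against 34197721 to 34198234 in KO control and 34197761 to 34198014 in WT control libraries, around the annotated start at 34198195. The control groups overlapped each other and bridged the stimulated ones, and several libraries held a pair of summits of nearly the same deposited fold, such as 20.85 at 34198211 and 19.8 at 34197797 in KO stimulated library 3.

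Psmb9 encodes the LMP2 subunit. Its start lies in the region shared with Tap1, described above. That start is at the upper end of the gene, so the regions assigned to Psmb9 lie beyond its other end. Psmb9 region 1 (chr17:34170637-34171815), 10.2 kb (10215 bp) below the gene, had 70.8, 60.2 and 57.2 in KO stimulated and 53.6, 54.35 and 52.9 in WT stimulated cells, against 73.7, 75.05 and 73.2 in KO control and 81.2, 70.7 and 67.7 in WT control cells. Stimulated libraries were below control libraries within both genotypes, and KO stimulated libraries were all above WT stimulated ones. It fell by 15.4 points (exact permutation p = 0.005, adjusted p = 0.0147). Its covered length differed by -133.3 bp and just missed adjustment (exact permutation p = 0.005, adjusted p = 0.0546). A second region 1716 bp below the gene was called in 2 stimulated libraries, at 5.37 and 0.20, and could not be tested. In the full lists a peak was deposited there in 2 KO stimulated, 3 WT stimulated and 0 control libraries. This region too was kept through stimulated libraries alone. Psmb9 region 1 was given to Psmb9 by distance alone, and a region 12322 bp below the gene (chr17:34169094-34169708) was nearest to the class II gene H2-DMb1.

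Nlrc5 (chr8:94434335-94527272) had 10 of the 23 regions and the widest range of changes. The region over its lower end (region 2, chr8:94433092-94435632) was the strongest of the 10 in control cells. It had 69.0, 71.8 and 67.5 in KO stimulated, 69.5, 64.3 and 66.5 in WT stimulated, 62.4, 57.8 and 61.15 in KO control and 67.1, 58.9 and 59.96 in WT control cells. KO stimulated libraries were above KO control libraries, and the WT groups overlapped through WT control library 1. The rise of 6.88 points passed (exact permutation p = 0.015, adjusted p = 0.036) and was lost without WT control library 2 or 3 (adjusted p of 0.0534 and 0.0533).

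Inside the gene, region 6 was called in all 12 libraries and rose with stimulation. Region 6 (chr8:94457982-94459282), 24.3 kb above the lower end, had 61.5, 68.2 and 73.5 in KO stimulated and 69.8, 69.00 and 63.6 in WT stimulated cells, against 34.7, 40.04 and 36.4 in KO control and 36.8, 22.7 and 6.89 in WT control cells. All stimulated libraries were above all control libraries. The rise was 38.03 points (exact permutation p = 0.005, adjusted p = 0.0147), and it missed where intervals had to cover 50% of a region (adjusted p = 0.0873).

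Regions 5, 7 and 9 had calls in 5 of 6 stimulated libraries each and in 0 of 6 control libraries (call rate difference 0.833, exact permutation p = 0.02 for strength and adjusted p = 0.0334 for calls). Regions needed calls in at least 2 libraries to be kept, and these 3 were kept through stimulated libraries alone, so they had to be higher there and their tests are no support for a rise. They were 3 of 4 member regions that could be tested for calls. Among all regions tested for calls, 33.8% were called more often in stimulated cells, 26% less often, and 59.8% had an unadjusted p under 0.05. Region 9 (chr8:94503894-94504412) had 0, 35.2 and 45.8 in KO stimulated and 49.8, 50.1 and 40.35 in WT stimulated cells, a difference of 36.88 points (adjusted p = 0.0401, exact permutation test). Region 7 (chr8:94483549-94484361) had 30.4, 0 and 10.2 in KO stimulated and 30.6, 19 and 20.2 in WT stimulated cells. Region 5 (chr8:94453962-94454592) had 0, 28.6 and 14.1 in KO stimulated and 3.98, 11.0 and 5.71 in WT stimulated cells. In the full lists, weaker peaks were deposited in controls: at region 9 in 2 of 3 KO and 2 of 3 WT control libraries, at region 7 in 1 and 1, and at region 5 in 2 and 1. With all deposited intervals, region 7 (adjusted p = 0.0645) and region 9 (adjusted p = 0.0731) did not pass. The call at region 5 was lost without any 1 of the 6 control libraries (adjusted p of 0.0726 to 0.115).

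**Figure D3:**
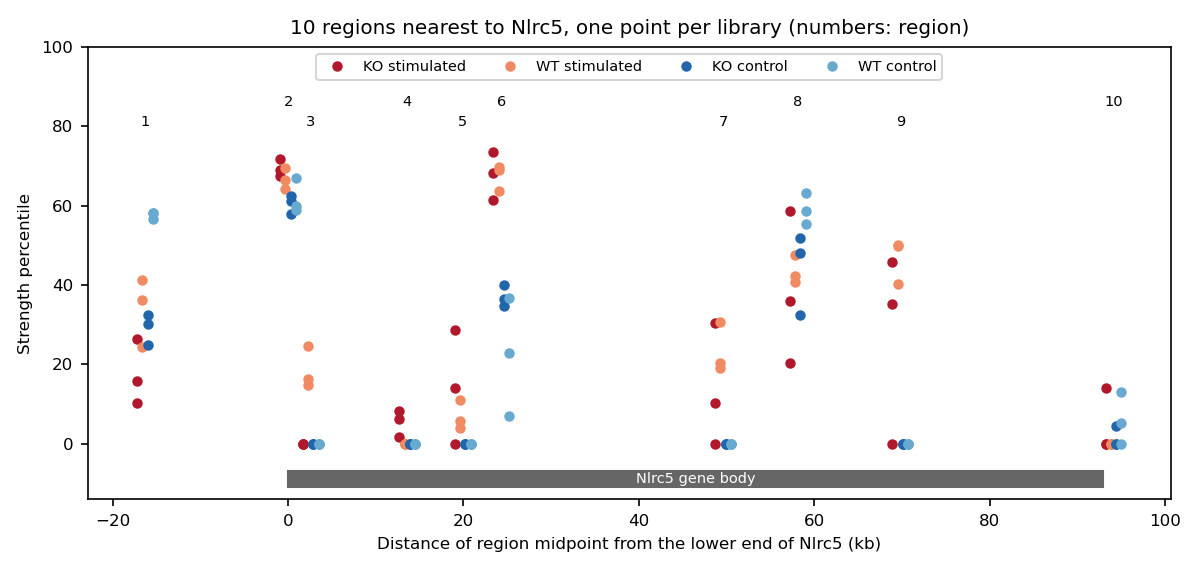
Strength percentile (y axis) of the 10 Nlrc5 regions by distance of the region midpoint from the lower gene end (x axis, kb), one point per library. Regions 5, 7 and 9 sit at 0 in all 6 control libraries, region 6 is higher in all stimulated libraries, and region 1, below the gene, is highest in WT control libraries.

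Nlrc5 region 1 (chr8:94417676-94418447), 15.9 kb (15888 bp) below the gene, fell with stimulation, and its genotype difference passed in limma but not in the permutation test. It had 26.3, 15.8 and 10.2 in KO stimulated, 36.1, 41.15 and 24.3 in WT stimulated, 32.3, 24.8 and 30.2 in KO control and 58.25, 56.7 and 58.2 in WT control cells. Every KO control library was below every WT control library, and KO and WT stimulated libraries overlapped through 1 value each. Stimulated minus control was -17.75 points (exact permutation p = 0.01, adjusted p = 0.0258), a call lost in lists cut to 17555 intervals, where the difference was -7.70 points and p could not go below 0.1 (exact permutation test). KO minus WT was -22.5 points and did not pass over all regions (exact permutation p = 0.01, adjusted p = 0.121, and 0.0894 to 0.237 over the other permutation settings). In limma on normal scores, whose p is not bounded by the number of rearrangements, the genotype difference passed at -0.89 ± 0.15 score units (SE, adjusted p = 0.00818). Of the 15 member regions fitted it was the 1 that passed for genotype, and over all regions 1.85% of regions were higher and 2.49% lower in KO cells. Within controls the limma difference of KO and WT was -1.12 ± 0.21 (SE, adjusted p = 0.0339), where 0.695% of regions were higher and 0.343% lower in KO cells. Within stimulated cells it was -0.65 ± 0.21 (SE, adjusted p = 0.143), where 0.695% of regions were higher and 0.847% lower.

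**Figure D4:**
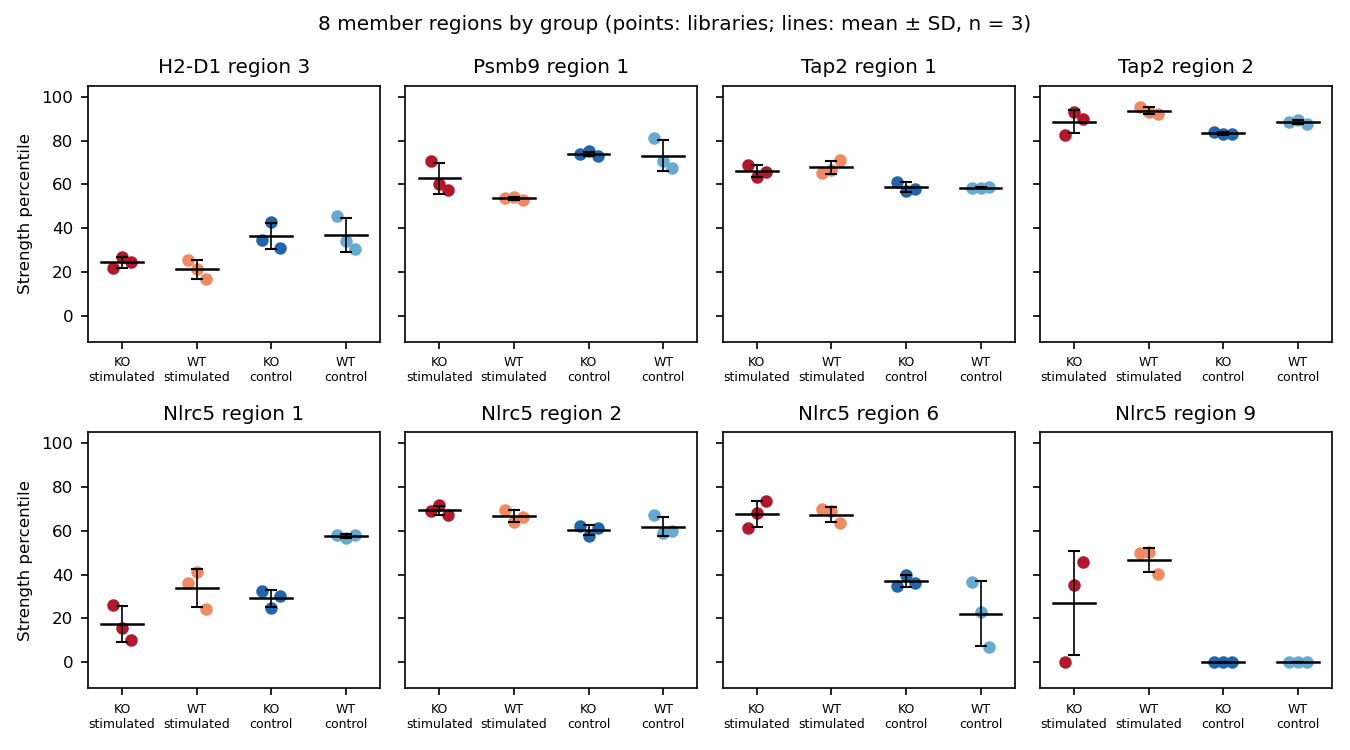
Strength percentile (y axis) of 8 regions by group (x axis), points for libraries and lines for mean ± SD (n = 3). Tap2 region 1 and Nlrc5 region 6 are higher in every stimulated library than in any control library, H2-D1 region 3 and Psmb9 region 1 fall within both genotypes, and Nlrc5 region 1 is highest in WT control cells (56.7 to 58.2).

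The remaining Nlrc5 regions were chosen for mention after their values were seen. Region 3 (chr8:94436431-94437405) was called in 3 of 3 WT stimulated libraries, at 16.2, 24.6 and 14.65, and in none of the other groups. In the full lists it was deposited in 0 of 6 KO libraries and in 1 WT control library. Region 4 (chr8:94447439-94448454) was called in the 3 KO stimulated libraries only, at 6.10, 8.19 and 1.60 (1.595). Weaker peaks at region 4 were deposited in 2 WT stimulated and 3 KO control libraries. Neither could pass, since calls in the 3 libraries of 1 group alone allow no p below 0.1 (exact permutation test). Region 8 (chr8:94491923-94493036) had a difference of -10.69 points (exact permutation p = 0.115, adjusted p = 0.168) and region 10, 677 bp above the gene, reached at most 14.1.

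Over all members, stimulation moved some regions up and others down. Of 19 regions that could be tested, 7 were higher and 4 lower in stimulated cells (36.8% and 21.1%), against 22.4% higher and 29.1% lower of all 37869 regions tested. The same 11 had an unadjusted exact permutation p under 0.05, against 56.3% of all regions. In limma, 4 of 15 regions were higher and 3 lower (19.9% and 21.5% of all regions). Nlrc5 gave 5 of the 7 higher regions, and 3 of those were regions 5, 7 and 9, which were kept only through stimulated libraries. Leaving these 3 out, 4 of 16 were higher and 4 lower. Without Nlrc5, 2 of 12 were higher (16.7%) and 3 lower (25%). The median difference over the 23 regions was -0.02 points, against -1.62 points over all regions. All 11 calls held without KO stimulated library 1, the library with the shortest list. Of the 23 member regions, 18, 20 and 20 were called in KO stimulated libraries and 20, 20 and 20 in WT stimulated libraries, against 16, 15 and 16 in KO control and 17, 16 and 17 in WT control libraries. These are mean shares of 84.06% for KO stimulated and 86.96% for WT stimulated libraries, against 68.1% for KO control and 72.5% for WT control libraries. Over all regions the shares were 71.8%, 75.2%, 74.27% and 74.29% in the same order of groups. Nlrc5 regions 3, 4, 5, 7 and 9 and Psmb9 region 2 had no control call and were kept through stimulated libraries alone. They could only raise the stimulated shares, so the member shares are no support for more calls after stimulation. Of the member regions, 15 of 23 (65.2%) were called in all 12 libraries, against 62.2% in the list of other class I pathway genes and 46.8% of all regions. The median percentile was 48.6 over members, 54.2 over the other pathway genes and 30.3 over all regions, and these differences were not tested.

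Within single genotypes the groups had 3 libraries each, and 3 against 3 cannot go below p = 0.1 (exact permutation), so separations were only counted. KO stimulated libraries lay wholly above KO control libraries at 4 member regions (16.5% of all regions) and wholly below at 2 (21.9%). WT stimulated libraries lay wholly above WT control libraries at 8 of 23 (24.2% of all regions) and wholly below at 7 (29.1%). The higher counts include Nlrc5 regions 3, 5, 7 and 9 in WT cells and Nlrc5 region 4 in KO cells. These had no control call and were kept through stimulated libraries alone, so their separations are no support for a rise. In the permutation test of the interaction 0 of 19 passed (0% of all regions), and 0 had an unadjusted exact permutation p under 0.05, against 2.3% of all regions. This test exchanged treatment labels within each genotype. A treatment difference shared by both genotypes therefore widens its null spread and makes a pass less likely, so it cannot decide whether the responses differed. In limma, 0 of 15 passed for the interaction (0.0143% of all regions larger and 0.00952% smaller in KO cells). This does not show that the genotypes responded alike. Within KO cells limma gave 3 of 15 higher (Tap2 region 1 and Nlrc5 regions 2 and 6) and 0 lower, against 14.2% and 11.8% of all regions. Within WT cells it gave 2 higher (Tap2 region 1 and Nlrc5 region 6) and 3 lower (H2-D1 region 3, Psmb9 region 1 and Nlrc5 region 1), against 15.5% and 14.7% of all regions. The smallest interaction p among members was that of H2-K1 region 1, where the KO difference exceeded the WT difference by 20.04 points (exact permutation p = 0.055, adjusted p = 1).

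**Figure D5:**
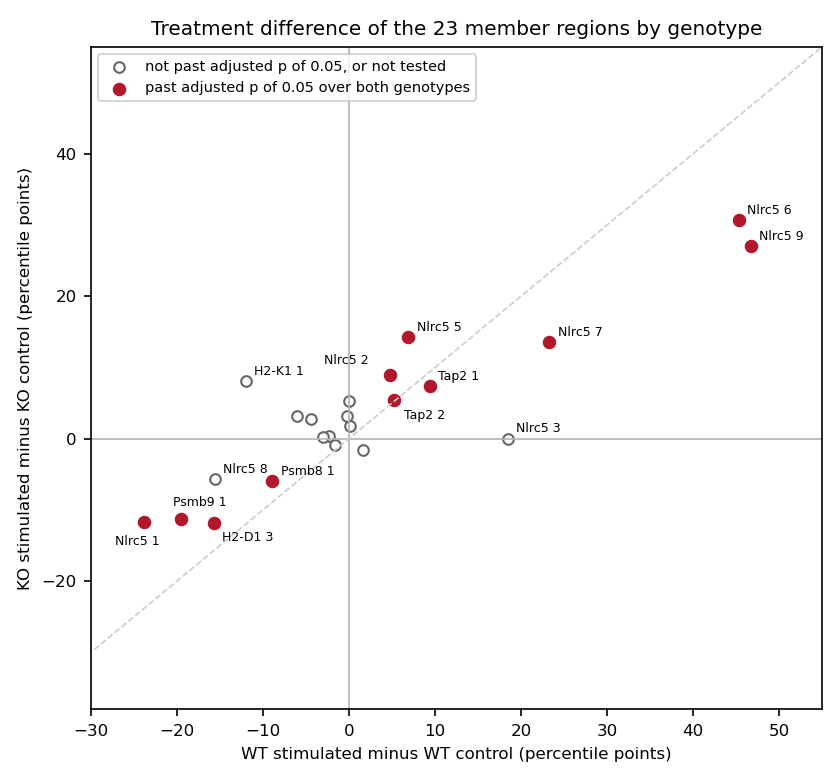
Stimulated minus control difference in strength percentile points in KO cells (y axis) and in WT cells (x axis) for the 23 regions, with an identity line (dashed) and filled points for regions past an adjusted p of 0.05 over both genotypes. The 11 filled points have the same sign in both genotypes. They were picked by the mean of both differences, which favours a shared sign. Nlrc5 regions 5, 7 and 9 had no control call and could not fall.

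Between genotypes no member passed the permutation test. Of 17 regions tested for strength, 0 were called (0% of all 32925 regions tested), and 2 had an unadjusted exact permutation p under 0.05, Nlrc5 region 1 and Tap2 region 2, against 17.8% of all regions. For calls, 0 of 1 member region tested passed, with 0 at an unadjusted exact permutation p under 0.05 (0% and 13.1% of all regions). KO stimulated libraries lay wholly above WT stimulated libraries at 4 member regions (8.32% of all regions) and wholly below at 1 (11%). The regions above include Nlrc5 region 4, and the region below was Nlrc5 region 3. Each was called in 1 group alone and kept through it, so its separation is no support for a genotype difference. KO control libraries lay wholly above WT control libraries at 0 (9.25%) and wholly below at 3 (10.6%). These 2 counts use the same libraries as the treatment counts. Covered length gave no member call for treatment or genotype (0% of all regions for both), with 4 of 15 regions under an unadjusted exact permutation p of 0.05 for treatment (26.7% of all regions) and 2 of 15 for genotype (22.6%). The length over the H2-K1 start was 3790, 3740 and 4021 bp in KO stimulated and 4082, 4027 and 4131 bp in WT stimulated cells, and 3833, 3711 and 3824 bp in KO control and 4136, 4011 and 4091 bp in WT control cells. KO libraries were shorter within both treatments, with a difference of -259.8 bp (exact permutation p = 0.005, adjusted p = 0.103). Over all regions the median KO minus WT difference in length was -127.2 bp.

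Other genes of the class I pathway gave a background. The list of 31 genes held nonclassical class I genes, other proteasome and loading factors, and the RFX, IRF and interferon receptor genes upstream. Each of the 31 had a region, 82 in all. Of 72 tested for strength, 20 were higher and 18 lower in stimulated cells (27.8% and 25%), against 22.4% and 29.1% of all regions tested for strength. Of 13 tested for calls, 6 were called more and 1 less in stimulated cells, against 33.8% and 26% of all regions tested for calls. All 6 called more had no call in control cells and were kept through stimulated libraries alone. Their tests for calls and for strength are therefore no support for a rise, and the Mr1, H2-T23 and Irf1 regions named next are among them. The 1 called less, at Ifngr1 (chr10:19565837-19566323), had no call in stimulated cells and was kept through control libraries alone. The largest rise, named after values were seen, was at Mr1 (chr1:155138557-155139466), which encodes a class I-like molecule that presents vitamin B metabolites. It had 37.4, 67.3 and 69.1 in KO stimulated and 63.2, 64.8 and 65.9 in WT stimulated cells, with no call in the 6 control libraries, and rose by 61.3 points (adjusted p = 0.0147, exact permutation test). At H2-T23, the gene of Qa-1b, 1 region (chr17:36024530-36026520) was likewise called in all stimulated libraries, at 29.1 to 50.2, and in no control library, and rose by 37.2 points (adjusted p = 0.0147, exact permutation test). At Irf1, a transcription factor induced by interferon gamma, a region over a gene end (chr11:53778195-53780452) had 26.3, 48.8 and 45.1 in KO stimulated and 59.1, 56.9 and 66.1 in WT stimulated cells and no call in control cells, and rose by 50.4 points (adjusted p = 0.0147, exact permutation test). The largest fall was at Ifngr1, a chain of the interferon gamma receptor (chr10:19582039-19583306), with no call in KO stimulated cells and 0, 16.5 and 16.6 in WT stimulated cells, against 52.2, 23.2 and 49.7 in KO control and 67.4, 62.5 and 55.8 in WT control cells. It fell by 46.3 points (adjusted p = 0.0147, exact permutation test). Of the class II genes, which lie in the chromosome 17 block except Ciita on chromosome 16, 8 of 9 had regions. For strength, 1 of 16 tested regions was higher and 3 lower (6.25% and 18.8%), against 22.4% and 29.1% of all regions.

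Some regions within 50 kb of the members were nearest to another gene and were not counted as theirs. In all, 64 regions lay within 50 kb of a member body. A region 7408 bp above B2m (chr2:122160490-122163028), nearest to Trim69, averaged 39.05 in KO stimulated and 41.1 in WT stimulated cells, against 27.35 in KO control and 18.4 in WT control cells. It rose by 17.19 points (adjusted p = 0.0147, exact permutation test), whereas the B2m start did not pass. A region 43448 bp above H2-D1 (chr17:35310945-35312107), nearest to H2-Q1, averaged 56.6 in KO stimulated and 58.9 in WT stimulated cells, against 10.2 in KO control and 0 in WT control cells, a rise of 52.6 points (adjusted p = 0.0147, exact permutation test). A region 37095 bp above Nlrc5 (chr8:94564367-94564963), nearest to Cpne2, was called in every stimulated and in no control library, at means of 22.8 in KO stimulated and 23.4 in WT stimulated cells (adjusted p = 0.0168 for calls, exact permutation test). Falls also occurred: a region 24881 bp below Nlrc5 (chr8:94408251-94409454), nearest to Herpud1, averaged 7.88 in KO stimulated and 29.4 in WT stimulated cells, against 47.2 in KO control and 47.5 in WT control cells, and fell by 28.7 points (adjusted p = 0.0147, exact permutation test). These neighbours were named after their values were seen, and the Cpne2 region was kept through stimulated libraries alone.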

How the data were processed

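The authors deposited 1 peak list per library on mm10. The submitters' processing notes name Bowtie2 2.3.4.1, MACS2 2.1.1.20160309, SAMtools 1.15.1, deepTools 3.4.2, cutadapt 4.1 and FastQC 0.11.9, with no roles. Any shift of reads for the transposase, read filters and peak thresholds were not given in the sources used here. The deposited fold is a ratio of a peak to its library's background. The −log10 p and the −log10 q, as deposited, are also values of single peaks, and all 3 served only to order peaks within a list.

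Summits of 1 interval were collapsed to the strongest, on chromosomes 1 to 19, X and Y. Lists held 35110 to 63128 intervals and were cut to 35110. Intervals sharing at least 1 bp were merged, and regions called in at least 2 libraries kept. Each was given to the nearest protein-coding gene body (21887 genes, GRCm38.p6). The gene table has no exons, so exons and introns were not used here.

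Strength percentiles, calls and covered lengths were compared by an exact two-sided permutation test within strata (400 rearrangements, smallest p 0.005), combining genotypes for treatment and treatments for genotype. Benjamini-Hochberg adjustment covered all regions able to reach 0.05. The alternatives included limma 3.58.1 (R 4.3.3) on normal scores of ranks. Tests were tried on simulated data. Python 3.11.15, numpy 2.4.6, pandas 2.3.3 and matplotlib 3.10.9 were used.

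Members, lists, tests and motifs were chosen with earlier results of these data known. The regions named are those over a start, up to 5 per member past an adjusted p of 0.05, and the largest treatment and genotype differences of each member. Replicate numbers did not pair libraries by the rule used, which asks for a correlation over 0.1 in every pair. Intervals with identical ends made up at most 0.173% of a pair of lists, so the lists were not copies of each other, and each library was counted as 1 replicate. This share cannot show whether the libraries came from separate animals. The values of 2 marker genes are not reported here.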

Additional observations from a re-analysis of the deposited data

How the results depend on the processing

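Of the 11 member calls for treatment, 11 held with peaks ordered by fold, with log2 ranks and with −log10 q of at least 5, 10 with 50% overlap, 9 with all deposited intervals, 9 with summit windows, 7 in limma (8 could be fitted), 6 in half-length lists (7 had a value) and 7 to 11 when 1 library was left out. Nlrc5 regions 5, 7 and 9 are among the 11. They were kept through stimulated libraries alone, so where their calls held this is no support for a rise. Over all regions, calls for treatment (5262) fell to 3006 in half-length lists, 1539 with all deposited intervals and 1466 with −log10 q of at least 5, and ranged over 5491 to 6349 without 1 library. Strength calls (19523) were 8822 in half-length lists, 8701 in limma and 16567 to 21248 without 1 library. Genotype gave 912 strength calls and the interaction 5 in limma, against 0. Member regions per library (17.9) were 12.17 in half-length lists, 24.75 with all intervals, 16.7 with 50% overlap, 52.6 when each interval went to the nearest of the 9 members, and 17.7 to 18.2 without 1 library. The cause of these differences was not tested.

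Replicate numbers served once as a block, with 64 rearrangements and a smallest p of 0.0312. With the block 2616 calls passed for treatment, 0 strength calls (15913 unadjusted) and 57 genotype calls. All 11 member calls were then lost, with the same signs: 8 had adjusted p of 0.0628 or 0.104, and Nlrc5 regions 5, 7 and 9 could not be tested. The block changed no other member call. Within each genotype, every stimulated library correlated best with the control library of its own number, a hint from the data.

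Reversed signs were all of results that did not pass, except Tap2 region 1, whose strongest summit window differed by -4.20 points between treatments. For H2-D1 region 2 the genotype difference was 0.053 in log2 ranks and 0.012 in limma, and the treatment difference 0.083 and 0.025. Tapbp region 1 had treatment differences of 0.069 in log2 ranks and 0.0040 in limma. KO minus WT became -8.68 points (−log10 q of at least 5) and -2.31 points (50% overlap) at H2-D1 region 3, -3.57 (all intervals) and -5.36 (−log10 q of at least 5) at Nlrc5 region 5, and -15.4 (50% overlap) at Nlrc5 region 6. Without 1 library, treatment differences ranged from -0.61 to 0.97 points at H2-D1 region 2, -4.46 to 0.98 at H2-K1 region 1 and -2.60 to 0.22 at Tapbp region 1. KO minus WT ranged from -1.42 to 0.020 at B2m, -0.73 to 0.85 at H2-D1 region 2, -0.32 to 3.55 at H2-D1 region 3, -0.21 to 1.84 at Nlrc5 region 2, -0.077 to 1.585 at Tap1 and -1.51 to 0.085 at Tap2 region 1.

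Peak lists without reads or depth set the limits: a region outside the list is not closed chromatin, tied −log10 q values coarsen ranks, and percentiles show order and not amount.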
